A study of Arabidopsis thaliana with 6 samples.

Results

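The data describe 10 genes of the Arabidopsis circadian clock across 6 plant lines. They are the pseudo-response regulator genes PRR9, PRR7, PRR5, PRR3 and TOC1, the evening complex genes ELF3, ELF4 and LUX with the LUX homologue BOA, and GI. They were chosen by locus from what is known of the clock, after an earlier look at these arrays had shown clock genes to vary between lines. Their levels over the lines are therefore a description and carry no test. All 10 loci were on the array, out of 32627, and they had 12 of its 37118 features, because PRR9 and LUX had 2 features each. A feature is the summary of 3 or 4 probes for each of these genes.

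The lines compared were 3 Arabidopsis thaliana lines transformed with 35S::VvMYBPAR, called PAR18-2, PAR9-2 and PAR36-4, and 3 lines transformed with an empty vector, called Cont1-1, Cont2-3 and Cont5-1. VvMYBPAR is a grapevine MYB transcription factor, and the viral 35S promoter drives it in most tissues. All 6 lines were of ecotype Columbia and were harvested whole at 3 weeks. Their agar contained kanamycin at 30 mg/l, and they were kept at 22 °C with light for 16 h of each day. There was 1 array per line, so a line, its culture, its array and its harvest cannot be told apart. The hour of harvest is not given in the sources used here.

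The clock of Arabidopsis is a loop of transcription factors that peak one after another through the day. CCA1 and LHY, a pair of MYB factors, peak at dawn. PRR9, PRR7, PRR5 and TOC1 peak in that order from morning to dusk, with PRR3 close to TOC1, and repress the dawn genes. GI peaks in the later part of the light period, and ELF4, LUX and BOA peak around dusk. ELF3, ELF4 and LUX proteins form the evening complex, which represses PRR9 and other genes at night. RNA taken from plants at one moment is thus known to hold the clock transcripts in proportions that depend on the hour.

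Levels are log2 values of the deposited RMA intensities, an array scale on which 1 unit is a doubling. They were compared between lines for 1 gene at a time. Only the index below subtracts levels of different genes, and it too is read only between lines. Median intensities of the 6 arrays lay between 859 and 887 units, and correlations between pairs of arrays across features lay between 0.984 and 0.993. Feature means fell into a dim and a bright population, and their density was lowest in between at a log2 value of 7.09. Values under this floor may be background, and no call of detection accompanies them, so folds against them are given as bounds. As a yardstick for differences between lines, the median feature with a mean of at least 8 spanned 0.42 from its lowest to its highest line. The 6 housekeeping genes looked at spanned 0.14 to 0.23. Of the 5 leaf and root marker genes, the leaf genes RBCS1A and CA1 spanned 0.30 and 0.23 and the root genes PYK10 and RHD2 spanned 0.12 and 0.48. The leaf gene CAB2, which is also a clock output, spanned 3.74 and was under the floor in PAR9-2.

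PRR9 (AT2G46790), the morning member of the PRR family and a repressor of CCA1 and LHY, was far lower in 1 line than in the others. Its first feature stood at 12.64, 7.19 and 12.40 in the MYBPAR lines PAR18-2, PAR9-2 and PAR36-4, against 11.55, 12.48 and 12.04 in the empty vector lines Cont1-1, Cont2-3 and Cont5-1. PAR9-2 lay 4.36 below the next lowest line, Cont1-1, while the 5 lines other than PAR9-2 spanned 1.09. The second feature gave 12.59, 7.08 and 12.35 in the MYBPAR lines and 11.50, 12.36 and 11.96 in the empty vector lines. Both features put the lines in the same order, and once each was centred on its own mean they disagreed by at most 0.038. From PAR18-2 to PAR9-2 the first feature spanned 43.8-fold, with its PAR9-2 value close above the floor. For the second, whose PAR9-2 value lay just under the floor of 7.09, PAR18-2 was at least 45.3-fold higher than PAR9-2. In whole plants, fewer cells with a transcript and less transcript per cell cannot be told apart.

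PRR7 (AT5G02810), which follows PRR9 and also represses the dawn genes, was lower in the same line by a smaller amount. It had 14.12, 12.93 and 14.22 in PAR18-2, PAR9-2 and PAR36-4, against 14.29, 14.18 and 13.97 in Cont1-1, Cont2-3 and Cont5-1. Without PAR9-2 the highest and lowest lines differed by 0.32, less than the yardstick of 0.42. Of the 5 gaps between neighbours in the order of lines, only the 1 above PAR9-2, at 1.04, was larger than that yardstick.

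PRR5 (AT5G24470), the afternoon member, was low in another line. Its values were 13.42, 13.21 and 14.01 in PAR18-2, PAR9-2 and PAR36-4 and 14.20, 13.78 and 11.89 in Cont1-1, Cont2-3 and Cont5-1. Cont5-1 was 1.32 under the next line, which was PAR9-2, and the whole span was 4.94-fold. The top lines were within the yardstick of each other, and PAR9-2 was 0.99 below Cont1-1.

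PRR3 (AT5G60100), whose protein shields TOC1 from degradation, had the widest span of the PRR genes after PRR9. It stood at 10.18, 12.91 and 11.19 in PAR18-2, PAR9-2 and PAR36-4, against 12.42, 10.53 and 7.89 in Cont1-1, Cont2-3 and Cont5-1. The highest line, PAR9-2, was 32.6-fold above the lowest, Cont5-1, and 4 of the 5 gaps between neighbours exceeded the yardstick. TOC1 (AT5G61380), the evening PRR and a direct repressor of CCA1 and LHY, kept a similar order over a narrower span of 4.97-fold. TOC1 had 12.48, 13.72 and 12.69 in PAR18-2, PAR9-2 and PAR36-4 and 13.64, 12.78 and 11.41 in Cont1-1, Cont2-3 and Cont5-1. PAR9-2 and Cont1-1 differed by 0.078 in TOC1, which is within the yardstick, so no order between them is read from it.

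**Figure D1:**
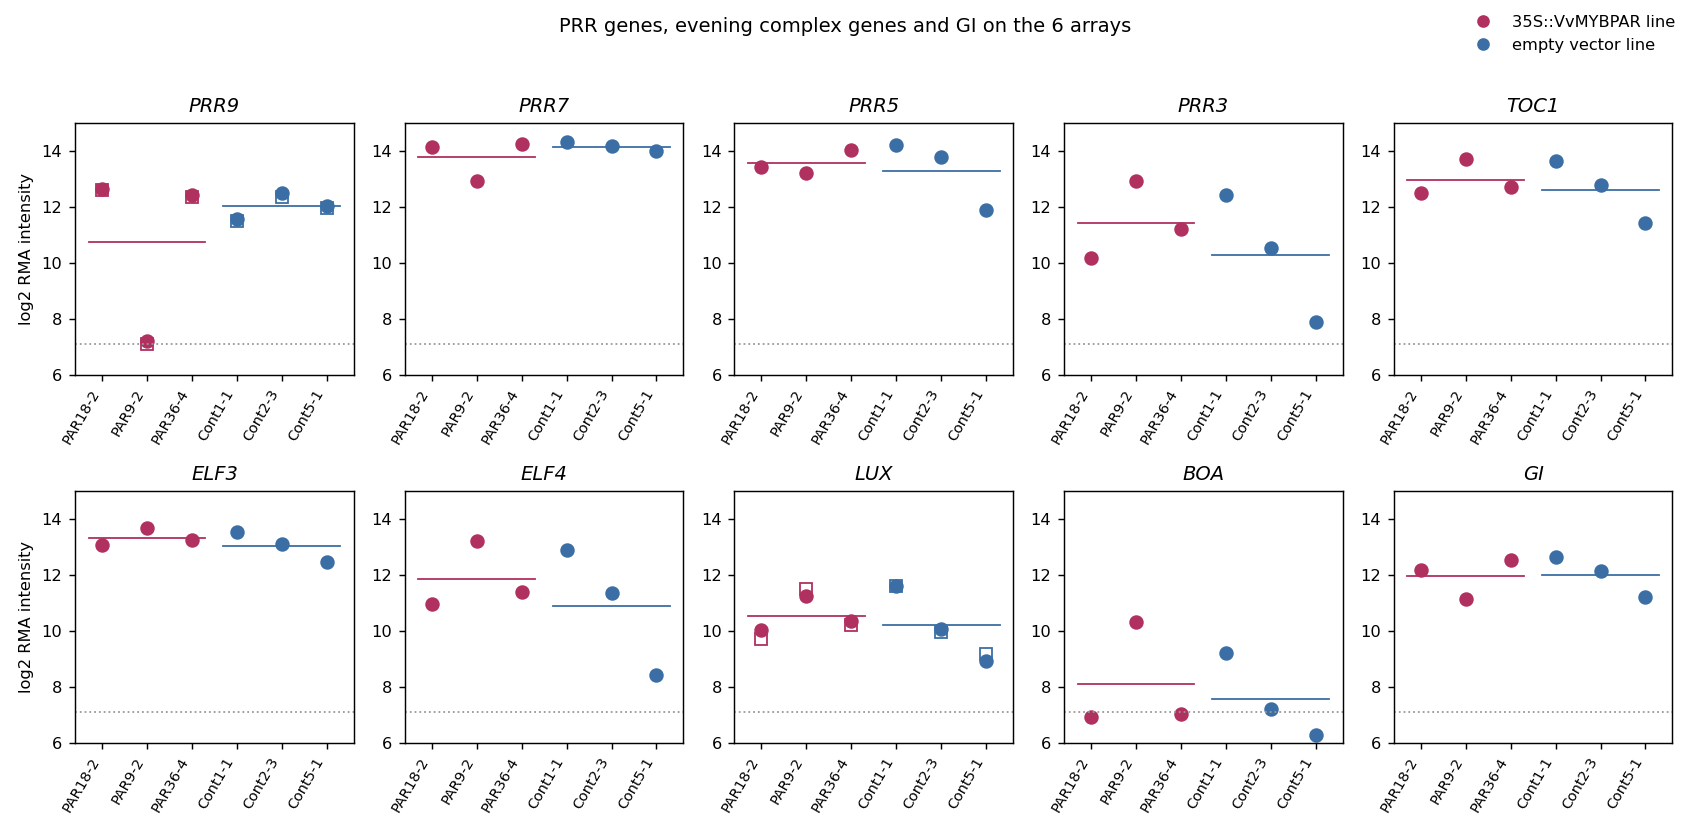
Log2 RMA intensity (y axis, the same in all panels) of the 10 genes in each line (x axis), with MYBPAR lines in red and empty vector lines in blue. Filled circles are the first feature, open squares the second feature of PRR9 and LUX, short horizontal lines the group means of the first feature, and the dotted line the floor of 7.09. PRR9 is low in PAR9-2 (7.19), and PRR3, TOC1, ELF3, ELF4 and LUX are lowest in Cont5-1, where BOA is under the floor.

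Evening complex genes varied over the lines in the manner of PRR3 and TOC1. ELF3 (AT2G25930), the scaffold that joins ELF4 to LUX and a gene with a broad daily profile, varied least of the 10. It had 13.04, 13.65 and 13.22 in PAR18-2, PAR9-2 and PAR36-4 and 13.51, 13.08 and 12.44 in Cont1-1, Cont2-3 and Cont5-1, a span of 2.31-fold. Cont5-1 was 0.61 under its neighbour, and this was the only gap above the yardstick.

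ELF4 (AT2G40080) encodes a small protein that acts with ELF3 at dusk. Its values were 10.95, 13.20 and 11.38 in PAR18-2, PAR9-2 and PAR36-4, against 12.89, 11.34 and 8.43 in Cont1-1, Cont2-3 and Cont5-1. The span was 27.2-fold, with PAR9-2 within the yardstick of Cont1-1 at the top and Cont5-1 lowest, 2.52 below the next line. PAR36-4 and Cont2-3, a line of each group, differed by less than the yardstick.

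LUX (AT3G46640), the DNA-binding MYB-like subunit of the complex, had 10.01, 11.23 and 10.36 in PAR18-2, PAR9-2 and PAR36-4 and 11.58, 10.07 and 8.93 in Cont1-1, Cont2-3 and Cont5-1 for its first feature. Its second feature gave 9.71, 11.48 and 10.20 in the MYBPAR lines and 11.60, 9.94 and 9.15 in the empty vector lines. After centring they disagreed by at most 0.28. LUX spanned 6.25-fold by the first feature and 5.46-fold by the second. PAR9-2 was 0.34 below Cont1-1 by the first feature, within the yardstick.

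BOA (AT5G59570), a close homologue of LUX that can take part in the same complex, had low values in most lines. It stood at 6.93, 10.30 and 7.04 in PAR18-2, PAR9-2 and PAR36-4, against 9.20, 7.20 and 6.27 in Cont1-1, Cont2-3 and Cont5-1. PAR18-2, PAR36-4 and Cont5-1 were under the floor of 7.09 and Cont2-3 was close above it, so their order is not read. With Cont5-1 raised to that floor, PAR9-2 was at least 9.26-fold higher than Cont5-1. PAR9-2 was also 1.10 above Cont1-1, whereas in LUX it was not higher. Probe sequences were not used here, so whether the LUX and BOA probes can bind the transcript of the other gene was not tested.

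GI (AT1G22770) encodes a large protein that stabilises the TOC1-degrading F-box protein ZTL in light and helps FKF1 to promote flowering. Its level was 12.17, 11.13 and 12.52 in PAR18-2, PAR9-2 and PAR36-4 and 12.62, 12.12 and 11.22 in Cont1-1, Cont2-3 and Cont5-1. GI was low in 2 lines at once, PAR9-2 and Cont5-1, which differed by 0.087. The 4 lines other than these were within 0.50 of each other, and the gap above the pair, at 0.91, was the 1 gap that exceeded the yardstick. In TOC1, PRR3 and ELF4, by contrast, Cont5-1 was lowest. There PAR9-2 was highest in PRR3, and in TOC1 and ELF4 it shared the top with Cont1-1, within the yardstick.

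The 10 genes were then set beside each other as a sequence of day phases. An index was formed for each line as the mean of PRR9 and PRR7 minus the mean of TOC1, ELF4, LUX and BOA, and centred on its median over the lines. It was 0.33, -5.02 and -0.016 in PAR18-2, PAR9-2 and PAR36-4, against -1.87, 0.016 and 1.28 in Cont1-1, Cont2-3 and Cont5-1. From the highest index to the lowest the order was Cont5-1, PAR18-2, Cont2-3, PAR36-4, Cont1-1 and PAR9-2. PAR18-2, Cont2-3 and PAR36-4 lay within 0.34 of each other, so their order is not read. The group means were -1.57 ± 2.99 (SD, n = 3) for MYBPAR and -0.19 ± 1.59 (SD, n = 3) for empty vector. The difference of these means, -1.38, was 0.34 without PAR9-2. The index takes BOA at its measured value, which was under the floor in 3 lines. It takes PRR9 by its first feature, which was close above the floor in PAR9-2.

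At the ends of that order the genes differed from their medians in different ways. In PAR9-2 the evening genes were high, with ELF4 at 1.84 and BOA at 3.18 from the median, while PRR9 was at -5.03, PRR7 at -1.22, GI at -1.02 and PRR5 at -0.39. In Cont1-1 the evening genes were also high, with ELF4 at 1.53 and BOA at 2.08, but PRR5 and GI were above their medians, at 0.60 and 0.47, and PRR9 was at -0.67. In Cont5-1 the evening genes were low, with PRR3 at -2.97 and ELF4 at -2.93, while PRR9 and PRR7 were both at -0.18.

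A line was counted as lowest or highest for a gene only where its gap to the next line was above the yardstick and the order was not one among values under the floor. By that count PRR3, TOC1, ELF3, ELF4 and LUX, 5 of the 6 evening genes, were lowest in Cont5-1, and BOA had no readable lowest line. PRR3, TOC1, ELF4, LUX and BOA, also 5 of the 6, had PAR9-2 and Cont1-1 above all other lines, and in 2 of them, PRR3 and BOA, PAR9-2 was above Cont1-1. PRR9 and PRR7 were lowest in PAR9-2 and PRR5 was lowest in Cont5-1. No highest line could be read for 8 of the 10 genes. These counts come from the same 6 arrays, and genes of 1 array are not independent of each other. The share of all features that meet the same rule in each line was not taken. Nothing is therefore read from these counts, or from those of other clock genes below, about clock genes against the rest of the array.

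**Figure D2:**
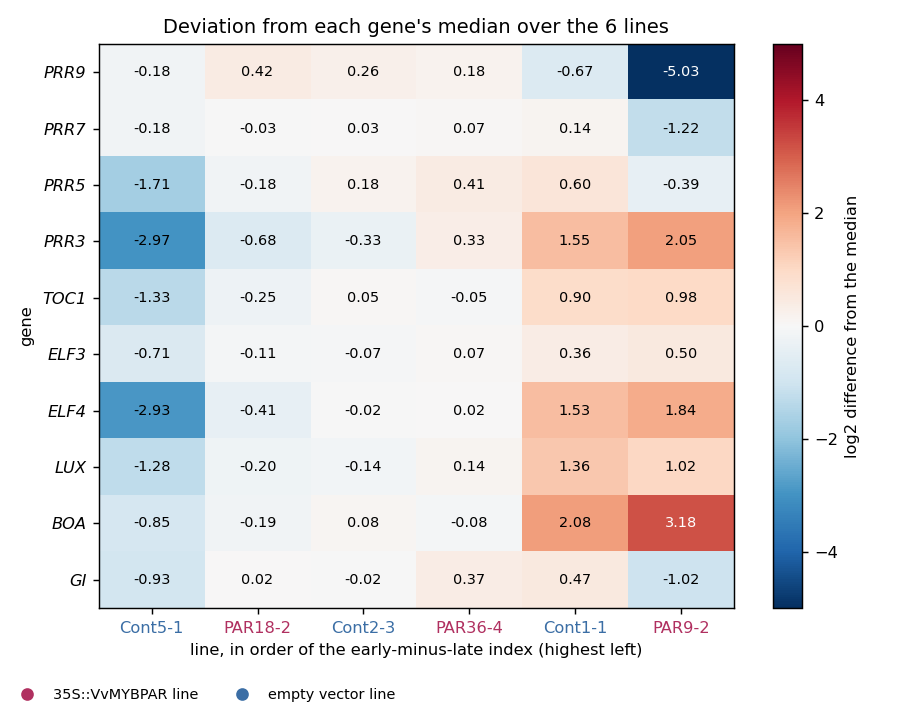
Log2 difference of each gene (rows) from its own median over the 6 lines, with lines (columns) in order of the index of early minus late genes, highest at the left. Line names are red for MYBPAR and blue for empty vector, and PRR9 and LUX are shown by their first feature. The evening genes are above the median in PAR9-2 and Cont1-1 and below it in Cont5-1, GI is low at both ends (-1.02 in PAR9-2 and -0.93 in Cont5-1), and PRR9 is low in PAR9-2 (-5.03).

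Lines of both constructs lay close together in the middle of the index. Over PAR18-2 and PAR36-4, both MYBPAR, and Cont2-3, an empty vector line, 7 of the 10 genes spanned less than the yardstick. BOA is among these 7, but its values in these lines were under the floor or close above it, so its narrow span is not read. PRR3 spanned most over these lines, at 1.01, and PRR7 least, at 0.097. This set of lines was picked after their values were seen. The yardstick is a span over all the lines, and a span over fewer lines can only be the same or narrower. The share of all features that spanned less than the yardstick over this set was not taken. Nothing is therefore read from the count of 7 about clock genes against the rest of the array.

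PRR9, PRR7, PRR5 and GI were also set against TOC1. GI and PRR5 were above their medians in Cont1-1, where TOC1 was also high, and both were lower in PAR9-2, where TOC1 was no lower than in Cont1-1. PAR9-2 minus Cont1-1 was -1.49 for GI, -0.99 for PRR5, -1.36 for PRR7 and -4.36 for PRR9, against 0.078 for TOC1, 0.14 for ELF3, 0.31 for ELF4, 0.50 for PRR3, 1.10 for BOA and -0.34 for LUX. Each of these is a difference of 2 single arrays and has no replicate error.

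**Figure D3:**
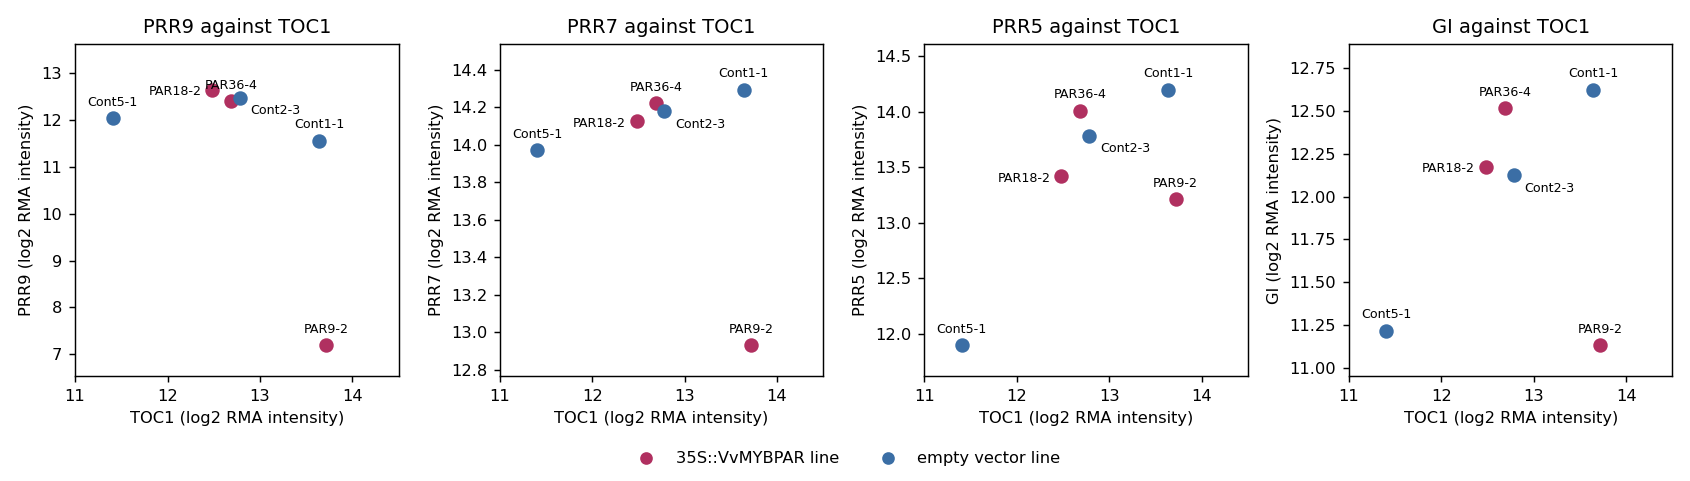
Log2 RMA intensity of PRR9, PRR7, PRR5 and GI (y axes, a different scale in each panel) against TOC1 (x axis), 1 point per line, with MYBPAR lines in red and empty vector lines in blue. PAR9-2 lies below Cont1-1 in every panel although the 2 lines have nearly the same TOC1 level, and Cont5-1, with the lowest TOC1 (11.41), is low for PRR5 and GI.

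The size of this variation was compared with the rest of the array. A span of at least 2 on the log2 scale was reached by 3.06% of all features and by 9 of the 12 features of these genes, at 7 of the 10 loci. Since the genes were chosen with their spread over these lines known, nothing is read from that share. PRR9 and PRR3 had the widest spans, of 5.45 for the first PRR9 feature and 5.03 for PRR3, at places 42 and 61 of all features. ELF4 was at place 73, and BOA is given no place because its low values were under the floor. The 3 genes with narrower spans were GI at 1.49, PRR7 at 1.36 and ELF3 at 1.21, which were also above the yardstick. The yardstick is a median, so many other features exceed it, and nothing is read from this. Gaps between neighbouring lines exceeded it in 22 of 58 cases, leaving out gaps between values under the floor. Both features of PRR9 and of LUX are counted there, and no share over all features was taken, so nothing is read from that count. By the gene order of RefSeq assembly TAIR10.1, the 20 genes directly beside the 10 loci had a median span of 0.55, against 0.56 over all features. Of these neighbours 2 reached a span of 2, UGT76E1 beside BOA at 2.67 and PAB3 beside GI at 4.13. These were named after their values were seen.

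MYBPAR and empty vector lines were then compared for the 10 genes. The groups overlapped in all 12 features, where 9.99% of all features had groups that did not overlap. In limma with Benjamini-Hochberg adjustment over all features, 0 of the 12 were called, and 0.00539% of all features (2 of 37118) were. None of the 12 had an unadjusted p under 0.05, against 4.32% of all features, a linear model with no moderation also called 0 of the 12, and the adjusted p lay between 0.915 and 0.990. For 12 features, counts of 0 are close to these shares of all features, so nothing is read from them about the 10 genes. All 95% intervals include 0 and most are wide, so a difference of either sign is not excluded. The differences are given as values, since the choice of the genes used the same arrays.

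PRR9 averaged 10.74 ± 3.08 (SD, n = 3) in MYBPAR lines and 12.02 ± 0.46 (SD, n = 3) in empty vector lines by its first feature, a log2 difference of -1.28 (95% interval -4.75 to 2.20). Without PAR9-2 that difference was 0.50, of the opposite sign. PRR7 differed by -0.39 (95% interval -1.24 to 0.46), and by 0.026 without PAR9-2. PRR5 differed by 0.26 (95% interval -1.20 to 1.72), and by -0.44 without Cont5-1. Each of these signs turned with 1 line.

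PRR3 averaged 11.43 ± 1.38 (SD, n = 3) in MYBPAR lines and 10.28 ± 2.27 (SD, n = 3) in empty vector lines, a log2 difference of 1.15 (95% interval -1.82 to 4.12). Without Cont5-1 it was -0.046. TOC1 differed by 0.35 (95% interval -1.12 to 1.83), by -0.023 without PAR9-2 and by -0.25 without Cont5-1. The within-group SD was 2.20 for the first PRR9 feature, 1.88 for PRR3 and, as the smallest of the 12 features, 0.44 for ELF3. Its median over all features was 0.20. For PRR9 the spread lay in the MYBPAR lines, with an SD of 3.08, against 0.46 in empty vector lines. Since the genes were chosen with their spread over these lines known, nothing is read from the comparison with all features.

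ELF4 had the largest group difference among the evening complex genes, 0.95 (95% interval -1.90 to 3.81), with means of 11.84 ± 1.19 (SD, n = 3) in MYBPAR lines and 10.89 ± 2.26 (SD, n = 3) in empty vector lines. It was -0.28 without Cont5-1. BOA, with 3 of its 6 values under the floor, differed by 0.53 (95% interval -2.18 to 3.25), by -0.57 without PAR9-2 and by -0.11 without Cont5-1. LUX differed by 0.34 and 0.23 in its 2 features, and both were below 0 without PAR9-2 and without Cont5-1. ELF3 differed by 0.30 (95% interval -0.43 to 1.02) and was the 1 gene whose sign held whichever line was left out, though it came down to 0.011 without Cont5-1. GI differed by -0.048 (95% interval -1.20 to 1.10), by 0.36 without PAR9-2 and by -0.43 without Cont5-1.

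**Figure D4:**
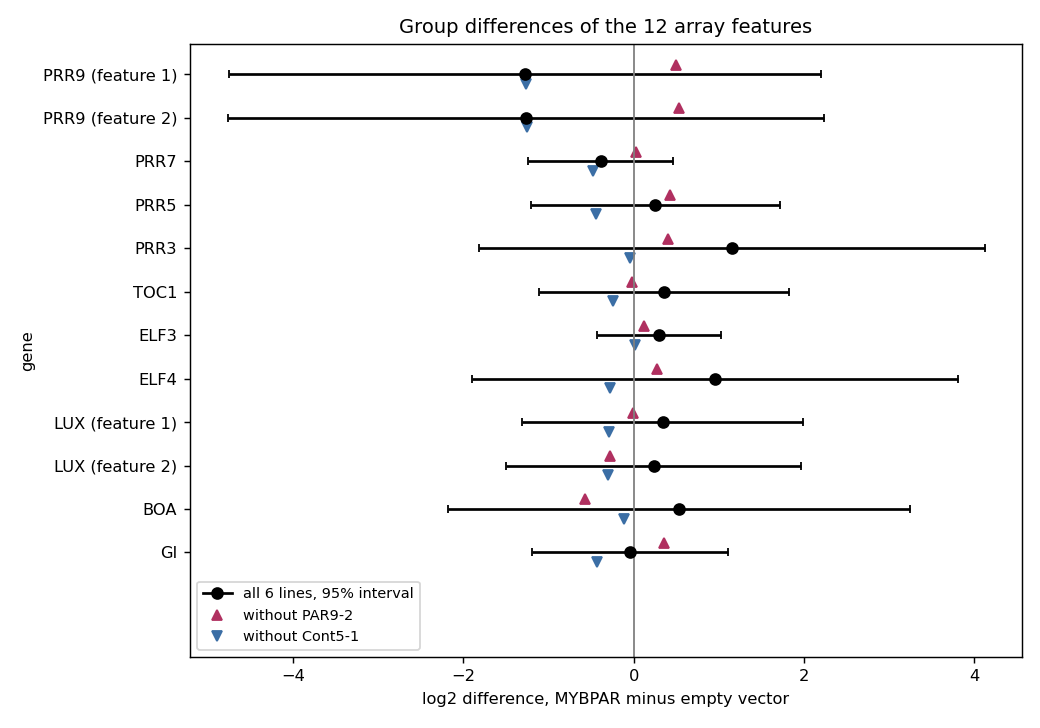
Log2 difference of MYBPAR minus empty vector (x axis) for the 12 features (rows), with black circles for all 6 lines and bars for the 95% interval of the limma fit. Red upward triangles leave out PAR9-2 and blue downward triangles leave out Cont5-1. All intervals include 0, and the sign turns in 8 features without PAR9-2 and in 7 without Cont5-1.

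Other clock genes, from lists of 45 loci, were read on the same arrays. None of their 71 features was called in either direction by limma, against 0.00539% of all features. None had an unadjusted p under 0.05, against 4.32% of all features, and the smallest adjusted p was 0.915. Features of 1 array are not independent of each other, so nothing is read from these counts about clock genes. The dawn MYB list holds CCA1, LHY and the REVEILLE genes. Of its 10 genes 6 spanned at least 2. By the same reading of extreme lines, 7 were lowest in PAR9-2 and 4 were highest in Cont5-1. CCA1 had 12.90, 7.54 and 12.35 in PAR18-2, PAR9-2 and PAR36-4, against 11.62, 12.93 and 13.50 in Cont1-1, Cont2-3 and Cont5-1. It was thus highest in the line where the evening genes were lowest, and so was LHY, with 7.53 in PAR9-2 and 13.04 in Cont5-1. RVE8, which activates PRR5 and TOC1, had 8.29 in PAR9-2 and 12.31 in Cont5-1. RVE2 was instead highest in PAR9-2, at 13.57, with 10.11 to 11.46 in the other lines.

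The LNK genes encode coactivators that work with RVE8 on PRR5 and TOC1. All 4 were lowest in PAR9-2, and their spans were 2.27 to 5.16. LNK3 had 12.87, 8.07 and 12.52 in PAR18-2, PAR9-2 and PAR36-4 and 11.81, 12.90 and 13.23 in Cont1-1, Cont2-3 and Cont5-1. LNK4 stood at 9.23 in PAR9-2 and at 13.81 in Cont5-1. LNK4 was the 1 LNK gene with a readable highest line. PRR9 was also lowest in PAR9-2.

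In the ZTL family, ZTL and LKP2 spanned 0.46 and 0.23, while FKF1, a blue light receptor of the photoperiod pathway and a partner of GI, spanned 5.17. FKF1 had 12.41, 13.25 and 12.76 in PAR18-2, PAR9-2 and PAR36-4, against 13.67, 12.70 and 8.50 in Cont1-1, Cont2-3 and Cont5-1. Its low line was that of the evening genes. The 4 ELF4-like genes, relatives of ELF4, spanned 0.51 to 0.65. ELF4-L3 was under the floor in all 6 lines, so its span says nothing of its level.

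Among 12 other clock-associated genes 3 spanned at least 2, and all 3 were high in PAR9-2 and Cont1-1. COR27, a cold-regulated gene that also affects the clock, had 6.23, 11.40 and 6.16 in PAR18-2, PAR9-2 and PAR36-4 and 10.68, 5.94 and 4.09 in Cont1-1, Cont2-3 and Cont5-1, and the 4 low lines were under the floor. AT4G33980 had 12.58 in PAR9-2 and 6.62 in Cont5-1. JMJD5, a jumonji-domain gene with an evening peak, had 14.05 in PAR9-2 and 8.48 in Cont5-1. The remaining 9 spanned 0.093 to 0.75, CHE, a TCP factor that represses CCA1, having the widest of these.

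Of 12 clock output genes, 6 spanned at least 2 and 5 had PAR9-2 as a readable lowest line. AT1G69570 was under the floor in all 6 lines. PIF5, a growth-promoting bHLH gene that the evening complex represses, had 13.95, 11.55 and 13.74 in PAR18-2, PAR9-2 and PAR36-4, against 13.74, 13.97 and 14.23 in Cont1-1, Cont2-3 and Cont5-1. The light-harvesting gene CAB2 was at 6.61 in PAR9-2, under the floor, and at 9.35 or more in the other lines. GRP7, an RNA-binding protein gene with an evening peak, had 14.87 in PAR9-2, within the yardstick of Cont1-1, and was lowest in Cont5-1 at 12.64. FT, the mobile flowering signal, had 6.62, 9.11 and 7.16 in PAR18-2, PAR9-2 and PAR36-4 against 7.83, 6.33 and 8.35 in Cont1-1, Cont2-3 and Cont5-1. Its values in PAR18-2 and Cont2-3 were under the floor.

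**Figure D5:**
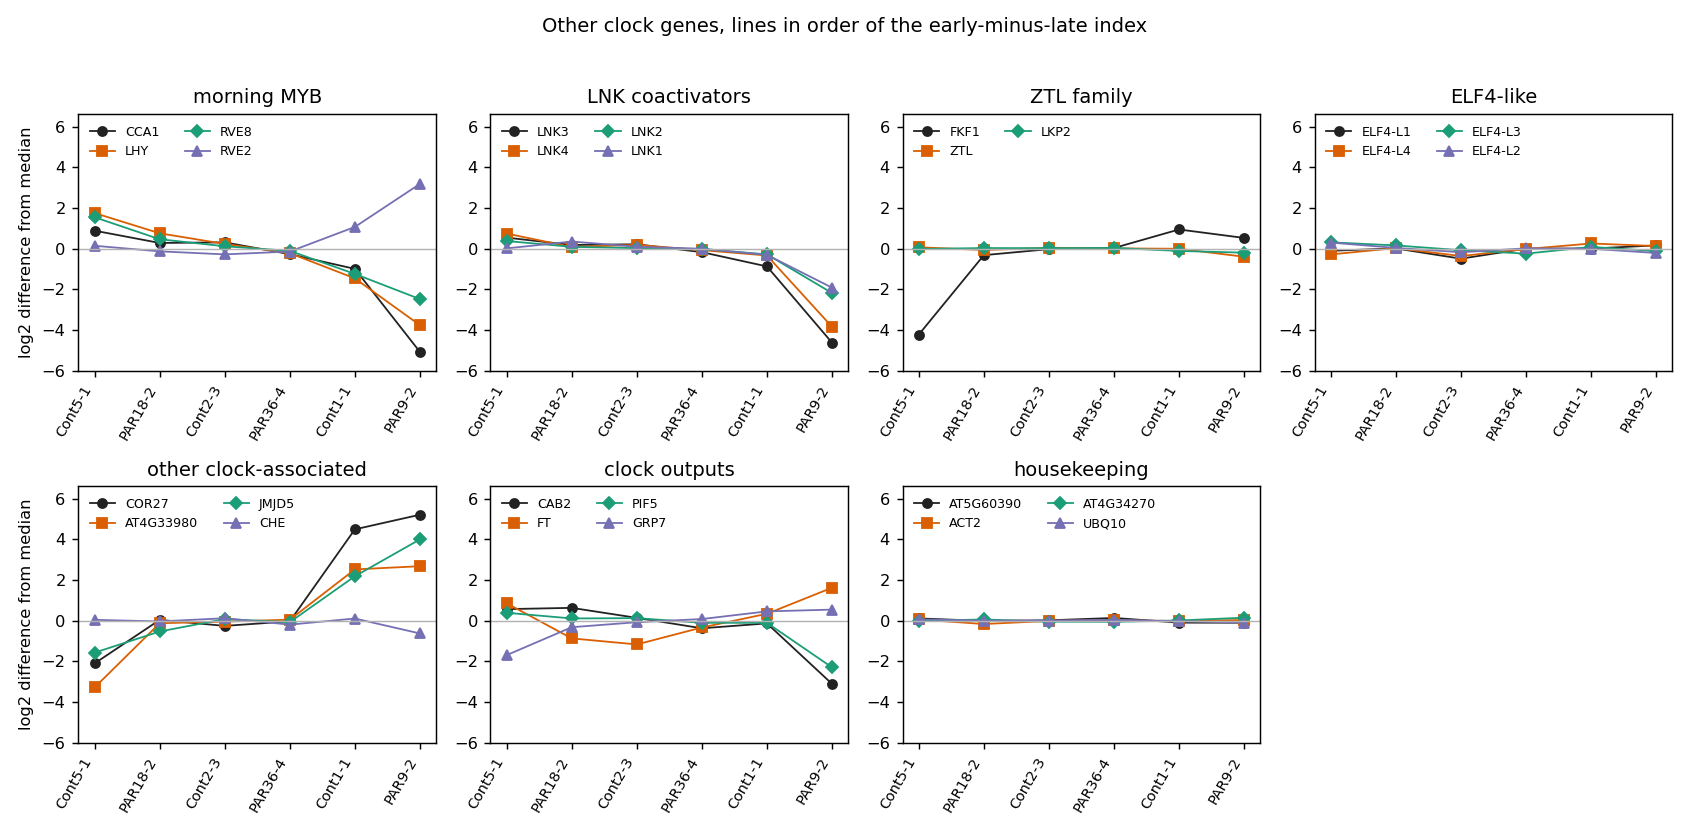
Log2 difference from each gene's median (y axis) over the 6 lines (x axis, in order of the early-minus-late index) for up to 4 genes per list with the widest spans. Points are single arrays joined by lines for reading only. CCA1, LHY, RVE8 and the LNK genes are lowest in PAR9-2, COR27, AT4G33980 and JMJD5 are high there and in Cont1-1, FKF1 is low in Cont5-1, and the ELF4-like genes span at most 0.65 (ELF4-L3 under the floor throughout).

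The genes whose profiles were most like those of the 10 were found by Pearson's r over the 6 lines, among features with a mean of at least 8 and an SD over the lines of at least 0.5. These are descriptions over 6 arrays of which 1 or 2 lie far from the others, so r is also given over the 4 lines left after the 2 farthest from the gene's median were taken out. For the first PRR9 feature the nearest were AT5G67390 (r = 0.999, and 0.949 over 4 lines), CDF3 (r = 0.998, and 0.992 over 4 lines) and AT2G46670 (r = 0.998, and 0.853 over 4 lines). The second PRR9 feature had the same genes, with AT2G46670 before CDF3. Over 4 lines its r was 0.918 for AT5G67390, 0.870 for AT2G46670 and 0.973 for CDF3. CDF3 encodes a DOF factor that delays flowering. The nearest to PRR7 were CYP89A9 (r = 0.994, and 0.651 over 4 lines), LHB1B1 of the light-harvesting complex (r = 0.993, and -0.012 over 4 lines) and AT3G10113 (r = 0.983, and 0.427 over 4 lines). The lines taken out for PRR7 were PAR9-2 and Cont5-1.

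PRR3 was followed most closely by AT1G69140 (r = 1.00, and 0.997 over 4 lines) and by BBX13, a B-box gene (r = 0.998, and 0.996 over 4 lines). TOC1 and ELF4 were nearest to each other, with r = 0.995 and 0.996 over 4 lines, and both had AT4G33980 next, at r = 0.995 for TOC1 and 0.994 for ELF4. Nearest to the first LUX feature was AT2G13430 (r = 0.988, and 0.981 over 4 lines), and BBX8 came next (r = 0.987, and 1.00 over 4 lines). The second LUX feature was nearest to COL9, also a B-box gene (r = 0.992, and 0.993 over 4 lines). AT2G13430 came next for it (r = 0.990, and 0.954 over 4 lines). BOA was nearest to JMJD5 (r = 0.994), and no r over 4 lines is given because the BOA values left were under the floor or close to it. PRR5 was nearest to the terpene synthase gene TPS03 (r = 0.987, and 0.902 over 4 lines). GI was nearest to the aldolase gene FBA5 (r = 0.983, and 0.849 over 4 lines). The last of the 3 listed for GI, AT5G52790, had r = 0.910 but -0.760 over 4 lines. ELF3 varied too little to enter this search.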

How the data were processed

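The intensity values deposited by the authors are RMA expression values, 1 per feature and array, on a linear scale, per the file headers. The submitters' processing notes name RMA, which corrects background, normalizes between arrays by quantiles and summarises probes; its version and the probe annotation are not stated in the sources used here. The series table, also deposited, holds log2 values that differ from log2 of the intensities by at most 1.66e-06. Arrays carry no counts, so the number of arrays limits precision. By their names the 6 arrays lay on 1 slide, so no slide or scan block could be fitted.

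The test was a limma fit (version 3.58.1, R 4.3.3, lmFit with eBayes) of log2 intensities, MYBPAR minus empty vector, over all 37118 features without filter or covariate, with a threshold of 0.05 on the adjusted p. The model was tested on simulated data. Replicates are separately cultured lines by the labels, and p-values rest on the spread between them.

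The 10 genes and the clock lists were chosen with earlier results of these data known. Lists use the feature with the highest mean per locus; from each list up to 4 genes with the widest span could be named, and per gene the 3 features most like it. Names and gene order come from RefSeq TAIR10.1; a list gene without its list name there is given by locus, and no coordinates are printed because the files name no build. The index was formed from features with the highest mean. Alternatives were another quantile normalization, median centring, the series table, a trended and robust eBayes, an unmoderated model, no dimmest 25% of features, log2(value + 32), array weights, a replicate block, locus means and leaving out each sample.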

Additional observations from a re-analysis of the deposited data

How the results depend on the processing

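Over the 10 alternatives that kept all 6 samples, the differences of the 12 features held their sign in 119 of 120 cases, and 0 of the features were called in any of them (smallest adjusted p 0.841). The exception was GI, at 0.054 with array weights. Many of these cases could not turn. The series table, trended and robust eBayes, unmoderated model, replicate block and omission of dim features leave each difference the same by construction. The count of held signs is therefore no measure of stability. Leaving out 1 sample turned the sign of 11 of the 12, of 8 without MYBPAR replicate 2 (PAR9-2) and of 7 without empty vector replicate 3 (Cont5-1), and again 0 were called (smallest adjusted p 0.723). The ranges over these 6 fits were -2.23 to 0.50 and -2.23 to 0.53 for the features of PRR9, -0.62 to 0.026 for PRR7, -0.44 to 0.71 for PRR5, -0.046 to 2.22 for PRR3, -0.25 to 0.87 for TOC1, 0.011 to 0.55 for ELF3, -0.28 to 1.95 for ELF4, -0.29 to 1.03 and -0.31 to 0.92 for LUX, -0.57 to 1.36 for BOA and -0.43 to 0.36 for GI. The index difference, -1.38, ranged from -2.33 to 0.34. The count of all features called, 2, was 0 with no moderation and between 0 and 3 when 1 sample was left out. With the replicate block it was 0 as well. The labels do not say that the replicate numbers pair the samples. Deviations of same-numbered samples correlated at 0.30, -0.058 and 0.24, and 3 of 6 samples correlated best with their own number. With 3 lines per group these values cannot settle whether the numbers pair the samples. With 1 array per line and 3 lines per group, differences between single lines have no error of their own.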
